A study of Mus musculus with 6 samples.

Results

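Cell cycle and DNA replication genes were followed in lung antigen presenting cells of mice given cigarette smoke, with and without Spp1, the gene of the secreted protein osteopontin. The group holds 54 genes, chosen by name from the known machinery of chromosome copying and cell division, 19 of them for replication (G1/S) and 35 for mitosis (G2/M). Of these, 52 had a named probe on the array, and each was read from its brightest probe by the mean of the 6 arrays. After a brightness filter, 42 members were compared, among 12382 genes that passed the filter of 19057 genes named on the array.

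The samples were 6 Illumina arrays of cells from female C57BL/6 mice, 2 in each of 3 groups. The first group was Spp1-/- with cigarette smoke for 4 months, the second wild type (WT) with the same smoke exposure, and the third WT in room air. No Spp1-/- mice in room air were analysed here, and smoke could therefore be compared with air within WT only. Spp1 itself had no named probe, which leaves the genotype label unchecked. The labels name no separate animals for the arrays of a group. The p-values hence reflect the variation among these arrays alone, and that variation may be technical. The 2 arrays of a group correlated over all probes with r = 0.9936 in Spp1-/- smoke, 0.9917 in WT smoke and 0.9773 in WT air. Values are deposited log2 intensities between 6.62 and 16.01, and the median probe stood at 7.26. Of the antigen presentation genes, H2-Aa, H2-Ab1, H2-Eb1 and Cd74 lay far above that median in every group, as did Itgax and Cd86. The dendritic cell markers Flt3, Xcr1 and Zbtb46 lay near the median, with group means of at most 7.92, and Cd209a was below the brightness filter. Of the 15 antigen presenting cell markers listed, 14 passed that filter. The levels of Ciita, Clec9a, Itgae, Ccr7 and Fscn1, also on the list, are not given here.

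A cell that divides first copies its DNA. In late G1, cyclin D and cyclin E kinases release the E2F factors, which switch on the genes of origin loading, the MCM helicase and nucleotide supply, and after replication a second wave of genes for the Cdk1 kinase, the spindle and the separation of chromosomes is switched on through the MuvB and FoxM1 factors. Macrophages of the lung are known to renew in part by division in place, and monocytes from the blood also feed the pool. In RNA from a bulk preparation, fewer cells of a type and less RNA per cell cannot be told apart.

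Promoters are shown for 6 members that were higher in WT smoke than in WT air, because the replication and mitosis genes carry different known elements there. They were picked as examples that hold these elements, so their own matches carry no count. The sequences are the 250 bases before the annotated start in RefSeq (build GRCm38.p6), written 5′ to 3′ on the gene's strand. Capitals mark CCAAT (the box bound by NF-Y), TTTGAA (the core of the cell cycle homology region) and the E2F core, searched as TTCCCGC or TTCGCGC or TTGCCGC or TTGGCGC, each motif on either strand. The mitosis genes Cdk1 (chr10:69352913-69353162, minus strand), Cdc20 (chr4:118437344-118437593, minus strand), Ube2c (chr2:164769679-164769928, plus strand) and Prc1 (chr7:80294226-80294475, plus strand, the downstream of its annotated starts) come before the replication genes Mcm5 (chr8:75109259-75109508, plus strand) and Rrm1 (chr7:102441445-102441694, plus strand).
Cdk1: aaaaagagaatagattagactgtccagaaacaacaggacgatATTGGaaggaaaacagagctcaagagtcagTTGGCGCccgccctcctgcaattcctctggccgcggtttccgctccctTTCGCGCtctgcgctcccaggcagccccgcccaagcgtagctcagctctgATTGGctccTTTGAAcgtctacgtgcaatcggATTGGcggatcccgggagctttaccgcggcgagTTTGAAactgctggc
Cdc20: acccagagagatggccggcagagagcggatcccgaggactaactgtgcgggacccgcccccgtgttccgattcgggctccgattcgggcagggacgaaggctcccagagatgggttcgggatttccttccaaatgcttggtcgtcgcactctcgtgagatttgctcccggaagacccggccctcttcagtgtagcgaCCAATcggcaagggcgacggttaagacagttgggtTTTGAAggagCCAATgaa
Ube2c: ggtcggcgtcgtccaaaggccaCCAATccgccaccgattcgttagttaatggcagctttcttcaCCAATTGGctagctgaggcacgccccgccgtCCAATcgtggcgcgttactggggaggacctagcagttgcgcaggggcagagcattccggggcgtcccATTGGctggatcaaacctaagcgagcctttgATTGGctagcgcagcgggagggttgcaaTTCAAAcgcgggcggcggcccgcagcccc
Prc1: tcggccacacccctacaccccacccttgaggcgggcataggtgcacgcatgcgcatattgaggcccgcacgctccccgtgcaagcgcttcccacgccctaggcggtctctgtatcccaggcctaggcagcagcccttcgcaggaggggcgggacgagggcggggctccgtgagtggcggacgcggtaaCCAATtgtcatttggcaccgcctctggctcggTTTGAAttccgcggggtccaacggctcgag
Mcm5: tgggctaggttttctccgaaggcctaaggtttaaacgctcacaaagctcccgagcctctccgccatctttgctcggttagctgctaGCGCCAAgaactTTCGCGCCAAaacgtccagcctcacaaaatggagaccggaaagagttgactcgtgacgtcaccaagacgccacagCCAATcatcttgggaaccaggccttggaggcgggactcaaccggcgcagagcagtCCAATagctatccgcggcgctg
Rrm1: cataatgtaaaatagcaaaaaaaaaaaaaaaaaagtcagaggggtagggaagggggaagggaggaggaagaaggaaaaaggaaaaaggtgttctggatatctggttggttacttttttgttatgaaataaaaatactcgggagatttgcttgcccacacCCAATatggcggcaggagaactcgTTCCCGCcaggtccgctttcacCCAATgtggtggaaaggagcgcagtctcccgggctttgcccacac
All of the mitosis promoters printed here hold a CCAAT and a TTTGAA, with the TTTGAA nearest the start beginning 15 bases before it in Cdk1, 18 in Cdc20, 29 in Ube2c and 30 in Prc1. Neither replication promoter printed here holds TTTGAA in these bases, and each holds at least 1 E2F core, of which 2 overlap in Mcm5. The mitosis gene Cdk1 holds 2 E2F cores as well, and Mcm5 and Rrm1 hold 2 CCAAT each. The 250 bases before the other annotated start of Prc1 hold a CCAAT but no TTTGAA. In Ube2c a CCAAT on one strand overlaps a CCAAT on the other.

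Over windows that also take in the first 50 bases after the start, the promoter table covered 44 of the 54 members and 9963 of the 12382 genes compared. CCAAT and TTTGAA stood together in 19 of 29 mitosis promoters (65.5%) and 1 of 15 replication promoters (6.67%), against 6.12% of the genes compared and 7.97% of all genes in the table. An E2F core was found in 9 of 15 replication promoters (60%) and 4 of 29 mitosis promoters (13.8%), against 17.4% of the genes compared and 10.9% of all genes in the table. CCAAT alone is common, at 82.8% of mitosis and 60% of replication promoters against 42.4% of the genes compared. Of the 11 members with a promoter that were called higher in WT smoke than in WT air, 6 hold CCAAT with TTTGAA and 4 an E2F core, while Nusap1 and Melk, both called, hold none of these letters in the bases before the start. A match describes the letters only and shows no binding.

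WT smoke against WT air asked how 4 months of smoke related to these genes within wild type. Of the 42 members, 13 were higher and 2 lower in WT smoke, and 27 did not pass, at a limma adjusted p under 0.05 over all 12382 genes. In all genes compared, 21.4% passed, 11.1% higher and 10.3% lower. The members' shares were 31.0% higher and 4.76% lower, and the difference of these shares was not tested. Melk, among the 13, passed the brightness filter through the smoke groups, its WT air mean being below it. So did Ccna2 and Ttk, which were not called here. The higher members take in the helicase gene Mcm5, its partner Gins2, both subunits of ribonucleotide reductase, the mitotic kinases Cdk1 and Aurka, and the spindle genes Tpx2, Nusap1 and Prc1. The lower members were cyclin D1 (Ccnd1) and Kif23.

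The median log2 fold change was 0.50 over the 42 members, 0.52 over the 17 replication members and 0.48 over the 25 mitosis members, against 0.05 over all genes compared. The differences ran from -1.71 to 1.28 and were positive for 34 members and negative for 8. WT smoke lay above WT air on every array for 29 members and below it for 4, or 69.0% and 9.52%, against 34.8% and 24.8% of all genes compared. The 29 take in Melk, Ccna2 and Ttk, whose WT air means were below the brightness filter. Among replication members 4 rose and 1 fell of 17, and among mitosis members 9 rose and 1 fell of 25. At an unadjusted p under 0.05 stood 25 of the 42 members and 4309 of the 12382 genes (34.8%).

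**Figure D1:**
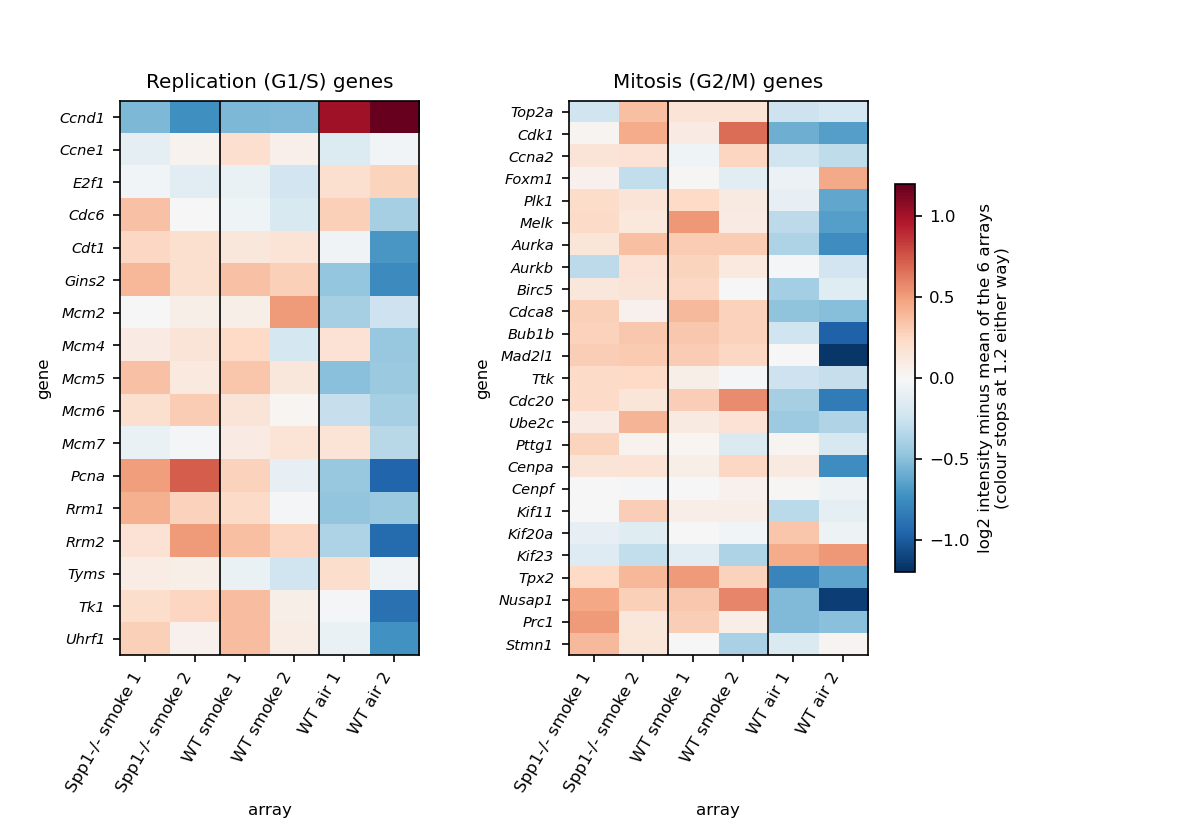
Each row is a tested member and each column an array, with Spp1-/- smoke at the left, WT smoke in the middle and WT air at the right. Colour is the log2 intensity minus the gene's mean over the 6 arrays, red for above and blue for below. The 2 WT air columns are mostly blue and the smoke columns mostly red, with the reverse for Ccnd1 and Kif23.

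Which arrays entered set how many members passed, and calls in the other cell cycle lists and the cell type markers changed with them too. The share of all genes called in these fits is not given here, so the counts show nothing particular to the members. The count was 1 (0 higher, 1 lower) without WT smoke replicate 1, 2 (1 higher, 1 lower) without WT smoke replicate 2, and 7 (5 higher, 2 lower) without either Spp1-/- smoke array, each left out in turn, which lend only their spread here. It was 21 (19 higher, 2 lower) without WT air replicate 1 and 10 (8 higher, 2 lower) without WT air replicate 2. All 15 called members kept their direction in each of these 6 fits. The mean log2 intensity over the 42 members was 9.75 on each Spp1-/- smoke array, 9.77 and 9.69 on the WT smoke arrays, and 9.44 and 9.21 on the WT air arrays. In both WT groups replicate 2 lay below replicate 1 for most members: for 31 in WT smoke, with a median difference of -0.12 over the members and -0.01 over all genes, and for 27 in WT air, with -0.17 over the members and 0.00 over all genes. In Spp1-/- smoke it was below for 21 and above for 21. The median SD of a member was 0.11 in Spp1-/- smoke, 0.11 in WT smoke and 0.18 in WT air (log2, n = 2 each). Over all genes compared it was 0.09, 0.09 and 0.15 in the same order, so the wider spread in WT air was not particular to the members.

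Cyclin D1 (Ccnd1), the G1 partner of Cdk4 and Cdk6 that couples growth signals to the cycle, was lower after smoke. Its log2 intensity was 12.59 and 12.39 in Spp1-/- smoke, 12.59 and 12.60 in WT smoke, and 14.15 and 14.46 in WT air. The 4 smoke arrays lay close together and below both WT air arrays. The log2 fold change in WT smoke was -1.71 ± 0.15 (SE, limma adjusted p = 0.00286), a level 0.306 times that of WT air. The other 2 probes of Ccnd1 gave -1.80 and -0.44. It was the only called member that passed in all 6 fits that each left out 1 array, with adjusted p between 0.00211 and 0.0324.

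Markers of other lung cells moved with Ccnd1, where 11.1% rose and 10.3% fell of all genes compared. Of lung epithelium markers, 0 rose and 13 fell of 16 tested, with a mean log2 intensity over the list of 9.82 and 9.62 on the Spp1-/- smoke arrays, 9.63 and 10.08 on the WT smoke arrays, and 11.54 and 11.82 on the WT air arrays. Of lung endothelium markers, 0 rose and 11 fell of 13, with a list mean log2 intensity of 8.998 and 8.71 in Spp1-/- smoke, 8.78 and 9.06 in WT smoke, and 11.19 and 11.42 in WT air. Of fibroblast and smooth muscle markers, 0 rose and 12 fell of 13, with a list mean log2 intensity of 8.86 and 8.63 in Spp1-/- smoke, 8.66 and 8.73 in WT smoke, and 10.29 and 10.43 in WT air. Of B cell markers, 0 rose and 6 fell of 8, and the other 2 were negative too, with a list mean log2 intensity of 8.999 and 8.81 in Spp1-/- smoke, 8.91 and 9.01 in WT smoke, and 10.07 and 10.16 in WT air. These lists were lower in the same arrays in which Ccnd1 was lower and the 13 called members were higher. Their part in either was not tested.

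Of the other marker lists, T and NK cell markers had 2 higher and 4 lower of 10 tested. All genes compared had 11.1% higher and 10.3% lower. Alveolar macrophage markers had 2 higher and 1 lower of 10, with a list mean log2 intensity of 11.70 and 11.87 in Spp1-/- smoke, 11.69 and 11.65 in WT smoke, and 11.44 and 11.37 in WT air. Antigen presenting cell markers had 4 higher and 4 lower of 14, monocyte markers 1 higher and 2 lower of 4, and neutrophil markers 1 higher and 2 lower of 7. Erythroid markers had 0 higher and 2 lower of 5, and markers of mast cells, basophils and eosinophils 0 higher and 1 lower of 4, all 4 with a negative difference. The part of these markers in the cell cycle results was not tested.

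**Figure D2:**
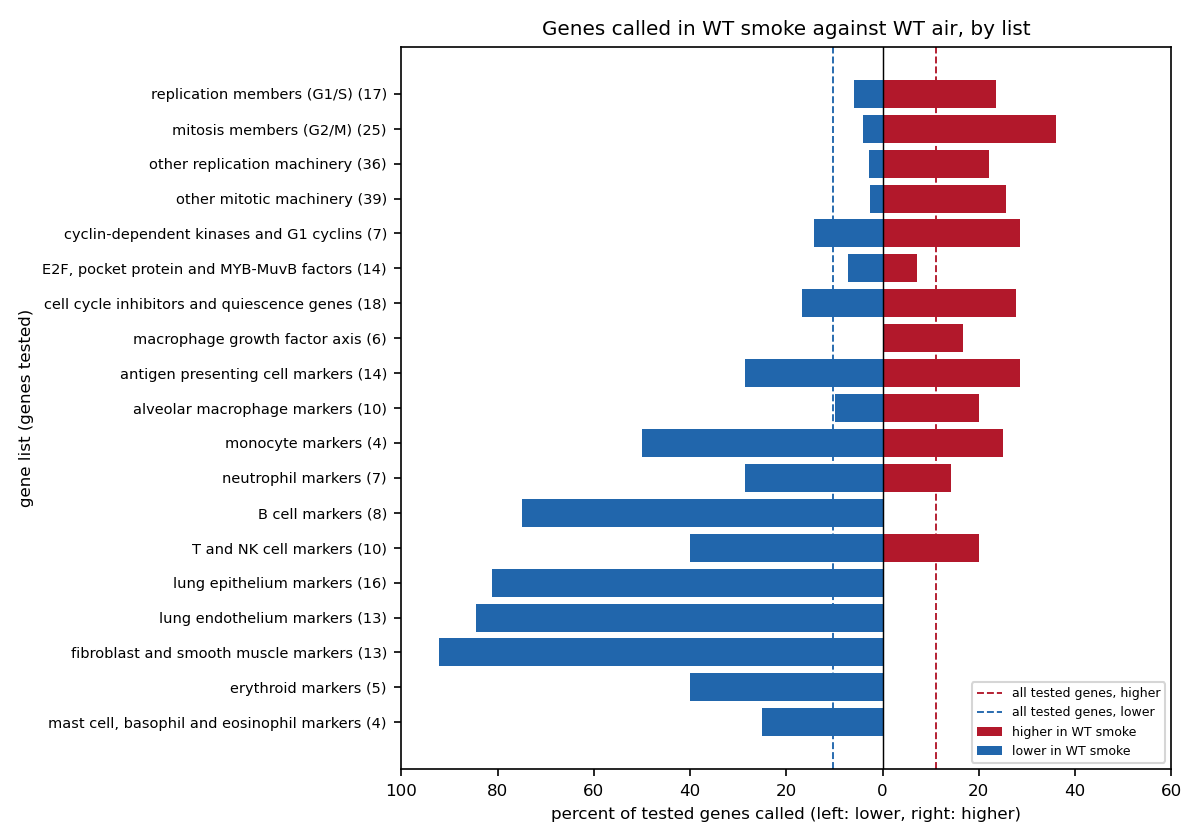
Bars give the percent of tested genes of each list that passed in WT smoke against WT air, higher to the right and lower to the left, with the number tested in brackets. Dashed lines mark 11.1% higher and 10.3% lower over all genes. The replication and mitosis members reach further right than left, and the epithelium, endothelium and fibroblast lists lie only on the left.

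Entry into S phase beyond Ccnd1 showed no called member. E2f1, the activating E2F factor, stood at 12.23 and 12.13 in Spp1-/- smoke, 12.18 and 12.03 in WT smoke, and 12.46 and 12.53 in WT air. Both WT smoke arrays were below both WT air arrays, but the difference of -0.39 ± 0.11 (SE) did not pass (limma adjusted p = 0.0612). Ccne1, cyclin E1, differed by 0.23 (adjusted p = 0.252), and Ccne2, cyclin E2, was below the brightness filter.

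The genes that load and run the replicative helicase differed among themselves. Mcm5, a subunit of the helicase ring, stood at 11.16 and 10.92 in Spp1-/- smoke, 11.13 and 10.94 in WT smoke, and 10.31 and 10.36 in WT air. Both WT smoke arrays lay above both WT air arrays, by 0.71 ± 0.13 (SE, limma adjusted p = 0.0199), and the call was lost without WT smoke replicate 1 (0.116) or replicate 2 (0.069). Gins2 belongs to the GINS complex, which joins the ring to make the active helicase. It stood at 8.87 and 8.65 in Spp1-/- smoke, 8.82 and 8.75 in WT smoke, and 8.003 and 7.70 in WT air. Its difference was 0.94 ± 0.15 (adjusted p = 0.0131), also lost without WT smoke replicate 1 (0.0876) or replicate 2 (0.0739). Its 2 dimmer probes gave -0.03 and -0.10, and with the mean of its probes it was 0.45 and did not pass (adjusted p = 0.053).

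The other helicase subunits did not pass in the fit reported here. Mcm6 had 12.41 and 12.52 in Spp1-/- smoke, 12.38 and 12.25 in WT smoke, and 11.95 and 11.82 in WT air. Its difference of 0.43 ± 0.11 was just outside the threshold (limma adjusted p = 0.0501), and it passed with no filter (0.0444), after centring on the kept genes (0.0472), without WT air replicate 1 (0.0429) and with the mean of its probes (0.65, adjusted p = 0.0326). Its other probes gave 0.61, 0.91 and, for the dimmest, -0.06. Mcm2 had 9.14 and 9.21 in Spp1-/- smoke, 9.21 and 9.64 in WT smoke, and 8.73 and 8.89 in WT air. Both smoke groups lay above WT air, and the difference between WT smoke and WT air was 0.61 ± 0.17 (adjusted p = 0.06). Mcm4 had 13.22 and 13.27 in Spp1-/- smoke, 13.36 and 12.90 in WT smoke, and 13.29 and 12.66 in WT air. Mcm7 had 9.95 and 10.00 in Spp1-/- smoke, 10.12 and 10.19 in WT smoke, and 10.19 and 9.70 in WT air. In Mcm4 and Mcm7 the WT groups overlapped, and the differences of 0.16 (adjusted p = 0.734) and 0.22 (adjusted p = 0.469) turned to -0.16 and -0.03 without WT air replicate 2. That of Mcm4 also turned without WT smoke replicate 1, to -0.07, and that of Mcm7 passed without WT air replicate 1 (adjusted p = 0.0378). Mcm3 was below the brightness filter, at 7.29 and 7.20 in Spp1-/- smoke, 7.06 and 7.10 in WT smoke, and 7.11 and 6.99 in WT air. Of the factors that load the ring onto origins, Cdt1 differed by 0.52 (adjusted p = 0.166) and Cdc6 by -0.06 (adjusted p = 0.903).

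Ribonucleotide reductase makes the deoxynucleotides for replication, and both of its subunit genes were higher in WT smoke. Rrm1, the large subunit, stood at 11.22 and 11.07 in Spp1-/- smoke, 11.02 and 10.77 in WT smoke, and 10.32 and 10.35 in WT air. Its difference was 0.57 ± 0.13 (SE, limma adjusted p = 0.0338), and the smoke and air groups did not overlap. The other probes of Rrm1 gave 0.30 and, for the dimmest, -0.04. Rrm2, the small subunit made in S phase, stood at 10.15 and 10.48 in Spp1-/- smoke, 10.34 and 10.23 in WT smoke, and 9.60 and 9.05 in WT air. Its difference was 0.96 ± 0.22 (adjusted p = 0.0369), 1.94-fold, and its other probes gave 1.10 and 0.20. These calls depended on the arrays and settings used: Rrm1 missed the threshold in each of the 6 fits without 1 array (adjusted p between 0.0551 and 0.16), with an intensity trend and robust prior (0.0594), with array weights (0.0703) and with the floor removed (0.0537). Rrm2 missed it without WT smoke replicate 1 (0.175) or replicate 2 (0.136), WT air replicate 2 (0.0525) or either Spp1-/- smoke array (0.0706), with no filter (0.0553) and with a replicate block (0.0646).

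Pcna, the sliding clamp that holds polymerase on DNA, stood at 9.98 and 10.21 in Spp1-/- smoke, 9.75 and 9.38 in WT smoke, and 9.02 and 8.52 in WT air. The 3 groups did not overlap, with Spp1-/- smoke highest, WT smoke next and WT air lowest. WT smoke exceeded WT air by 0.79 ± 0.22 (SE), which did not pass in limma (adjusted p = 0.0637) and did without WT air replicate 1 (0.0195) or with the brighter 25% of probes (0.0397). Tk1, the thymidine salvage kinase, differed by 0.68 (adjusted p = 0.187) with WT air arrays at 9.33 and 8.44. Uhrf1, which keeps DNA methylation through replication, differed by 0.64 (adjusted p = 0.136). Tyms, thymidylate synthase, stood at 7.64 and 7.63 in Spp1-/- smoke, 7.48 and 7.32 in WT smoke, and 7.77 and 7.51 in WT air. Its difference was -0.24 (adjusted p = 0.267), whereas its 3 next brightest probes gave 0.11, 0.10 and 0.15.

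**Figure D3:**
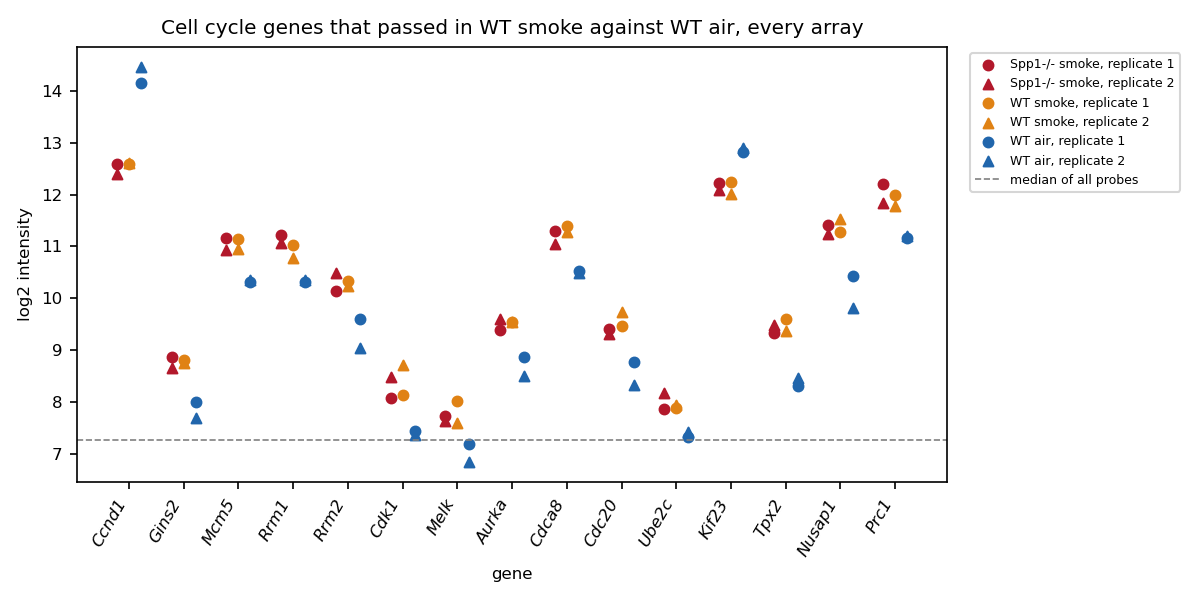
Log2 intensity of the 15 members that passed in WT smoke against WT air, 1 point per array, with circles and triangles for replicates 1 and 2. Red is Spp1-/- smoke, orange WT smoke and blue WT air, and the dashed line is the median of all probes. In each gene the 4 smoke arrays lie on the same side of the 2 WT air arrays, below them for Ccnd1 and Kif23 and above them for the others.

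Of the mitotic kinases, Cdk1, which drives entry into mitosis, stood at 8.07 and 8.49 in Spp1-/- smoke, 8.14 and 8.71 in WT smoke, and 7.45 and 7.37 in WT air. The WT air values were close to the median of all probes. WT smoke was 2.02-fold WT air, a log2 fold change of 1.01 ± 0.24 (SE, limma adjusted p = 0.0379). Its other probes, near the brightness filter, gave -0.41 and 0.03, the mean of its probes gave 0.30 (adjusted p = 0.201), and the call was also lost with no filter (0.0579), with array weights (0.0854) and in each of the 6 fits without 1 array (adjusted p between 0.0532 and 0.137). Aurka, the centrosome kinase that builds the spindle, stood at 9.38 and 9.59 in Spp1-/- smoke, 9.54 and 9.54 in WT smoke, and 8.86 and 8.49 in WT air. Its difference was 0.86 ± 0.16 (adjusted p = 0.0203), lost without WT smoke replicate 1 (0.113) or replicate 2 (0.104) or either Spp1-/- smoke array (0.0514). Melk, a kinase of dividing cells, stood at 7.73 and 7.63 in Spp1-/- smoke, 8.02 and 7.60 in WT smoke, and 7.19 and 6.84 in WT air. It passed the brightness filter through the smoke groups, its WT air mean being below it. The difference was 0.80 ± 0.19 (adjusted p = 0.0421), with 0.60 and 0.08 in its other probes. That call was lost without WT smoke replicate 1 (0.18) or replicate 2 (0.0684), WT air replicate 2 (0.0899) or either Spp1-/- smoke array (0.0958), with no filter (0.0605) and with array weights (0.0678). Plk1, the polo kinase, differed by 0.53 (adjusted p = 0.113) and did not pass.

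The partners of these kinases were mostly dim. Ccna2, cyclin A2, differed by 0.38 (limma adjusted p = 0.108), with a WT air mean below the brightness filter. Ccnb2, Cks1b, Cks2 and Nek2 lay below that filter. Ccnb1 and Mki67 had no named probe and are not analysed here. Foxm1, the factor that switches on many G2/M genes, differed by -0.25 (adjusted p = 0.496). Top2a, which untangles replicated chromosomes, stood at 7.54 and 8.14 in Spp1-/- smoke, 7.94 and 7.94 in WT smoke, and 7.53 and 7.57 in WT air. Both WT smoke arrays were above both WT air arrays, but the difference of 0.39 ± 0.21 did not pass (adjusted p = 0.257). In Spp1-/- smoke, replicate 2 was above both WT air arrays and replicate 1 lay between them.

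Of the chromosomal passenger complex, which corrects the attachment of chromosomes to the spindle, 1 of the 3 genes among the members passed. Cdca8, its borealin subunit, stood at 11.29 and 11.05 in Spp1-/- smoke, 11.39 and 11.29 in WT smoke, and 10.52 and 10.49 in WT air. The smoke and air arrays were well apart, with a difference of 0.84 ± 0.12 (SE, limma adjusted p = 0.0103). A probe of Cdca8 below the filter gave -0.14, and the call was lost without WT smoke replicate 1 (0.076) or replicate 2 (0.0559). Birc5, the survivin subunit, differed by 0.40 (adjusted p = 0.109), and Aurkb, its kinase, by 0.32 (adjusted p = 0.327).

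The spindle checkpoint holds the cell until chromosomes are attached, and Cdc20 then activates the anaphase promoting complex. Cdc20 stood at 9.40 and 9.32 in Spp1-/- smoke, 9.47 and 9.74 in WT smoke, and 8.78 and 8.33 in WT air. It was 2.07-fold higher in WT smoke than in WT air, at 1.05 ± 0.19 (SE, limma adjusted p = 0.0184), and its other probes gave 0.85, 0.30 and 0.27. Ube2c, the ubiquitin conjugating enzyme of the same complex, stood at 7.87 and 8.18 in Spp1-/- smoke, 7.88 and 7.94 in WT smoke, and 7.33 and 7.41 in WT air. Its difference was 0.54 ± 0.13 (adjusted p = 0.0452). The call of Cdc20 was lost without WT smoke replicate 1 (0.0717) or replicate 2 (0.102) or either Spp1-/- smoke array (0.054), and with the mean of its probes (0.74, adjusted p = 0.0548). That of Ube2c was lost in each of the 6 fits without 1 array (adjusted p between 0.0549 and 0.192), with no filter (0.0518), with array weights (0.0956) and with a replicate block (0.051). The checkpoint genes Bub1b and Mad2l1 differed by 0.90 (adjusted p = 0.0557) and 0.86 (adjusted p = 0.178) and did not pass. Their WT air arrays were far apart, at 11.00 and 10.27 for Bub1b and 9.28 and 8.10 for Mad2l1. Bub1 was below the filter, and Pttg1, securin, differed by 0.01 (adjusted p = 0.987).

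Among genes of the spindle, Tpx2, which activates Aurka on microtubules, stood at 9.33 and 9.49 in Spp1-/- smoke, 9.60 and 9.37 in WT smoke, and 8.30 and 8.46 in WT air. The groups with and without smoke were clearly apart. The difference of WT smoke and WT air was 1.10 ± 0.14 (SE, limma adjusted p = 0.0067), or 2.15-fold, and it missed the threshold in 1 of the 6 fits without 1 array, that without WT smoke replicate 1 (adjusted p = 0.0513). Nusap1, which bundles spindle microtubules, stood at 11.41 and 11.23 in Spp1-/- smoke, 11.27 and 11.54 in WT smoke, and 10.42 and 9.82 in WT air. At 1.28 ± 0.23 (adjusted p = 0.0185), or 2.43-fold, it had the largest rise of the members, and its dim probes gave 0.03, 0.16 and -0.03. That call was lost without WT smoke replicate 1 (0.0782) or replicate 2 (0.105) or either Spp1-/- smoke array (0.0532).

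The central spindle forms between the separating chromosomes, and its genes did not move one way. Prc1, which bundles its microtubules, stood at 12.21 and 11.84 in Spp1-/- smoke, 12.00 and 11.78 in WT smoke, and 11.17 and 11.20 in WT air. Its difference was 0.71 ± 0.16 (SE, limma adjusted p = 0.0356), with -0.05 in a probe below the filter. Kif23, a motor of the same structure, stood at 12.23 and 12.09 in Spp1-/- smoke, 12.25 and 12.02 in WT smoke, and 12.83 and 12.90 in WT air. Its difference was -0.73 ± 0.12 (adjusted p = 0.016), opposite to that of Prc1. The probes of Kif23 disagreed, at -0.68, 0.52 and -0.16 for the dimmer probes, and with the mean of its probes it did not pass (adjusted p = 0.102). The call of Prc1 was lost without WT smoke replicate 1 (0.179) or replicate 2 (0.0992) and without WT air replicate 1 (0.0589) or replicate 2 (0.0624), and with array weights (0.0807). That of Kif23 was lost without WT smoke replicate 1 (0.0547) or replicate 2 (0.0861). Kif20a, another motor there, differed by -0.15 (adjusted p = 0.566), and Racgap1, the partner of Kif23, was below the filter.

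The remaining mitosis members did not pass in this comparison. Kif11, the motor that separates spindle poles, differed by 0.30 (limma adjusted p = 0.215). The centromere genes Cenpa and Cenpf differed by 0.48 (adjusted p = 0.317) and 0.04 (adjusted p = 0.8). Cenpa was at 12.10 on WT air replicate 1, within the range of the smoke arrays, and at 11.24 on replicate 2. Cenpe and Hmmr were below the filter. The 10 members below the filter had differences from -0.16 for Bub1 to 0.11 for Cks2, with no limma adjusted p under 0.05 when no filter was used.

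Other genes of the same machinery were counted in the same fit, in which 11.1% of all genes compared rose and 10.3% fell, with a median of 0.05. Differences between these shares and those of the lists were not tested. Of 36 other replication genes tested, 8 rose and 1 fell (22.2% and 2.78%), with a median of 0.29. Cdc45, which joins GINS in the active helicase, rose by 1.35 ± 0.19 (SE, limma adjusted p = 0.0102), the GINS subunit Gins3 by 0.99 ± 0.14 (adjusted p = 0.0107), and the chromatin assembly subunit Chaf1b by 0.53 ± 0.09 (adjusted p = 0.0176). Rpa2, of the protein that coats single DNA strands, fell by 1.58. Of 39 other mitotic genes, 10 rose and 1 fell (25.6% and 2.56%), with a median of 0.37. Gtse1 rose by 1.66 ± 0.23 (adjusted p = 0.00906), the kinase gene Pbk by 1.44 ± 0.25 (adjusted p = 0.0176), and Ska3, a microtubule coupler of the kinetochore, by 0.71 ± 0.13 (adjusted p = 0.0182). The kinetochore gene Spc24 fell by 0.94.

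The regulators that stand above the machinery were mixed. Their shares below stand against 11.1% higher and 10.3% lower over all genes compared, and differences of these shares were not tested. In a list of 7 tested genes, mostly other kinases and G1 cyclins, 2 rose and 1 fell (28.6% and 14.3%). Cdk4, the partner of cyclin D, rose by 0.93 ± 0.12 (SE, limma adjusted p = 0.00812). Ccnh, which is not a G1 cyclin, rose by 1.04 ± 0.16 (adjusted p = 0.0131), while the cyclin D3 gene Ccnd3 changed by -0.47 ± 0.09 (adjusted p = 0.0241). Of 14 E2F, pocket protein and MuvB genes, 1 rose and 1 fell (7.14% each). Their median difference was 0.32, against 0.05 over all genes compared. WT smoke lay above WT air on every array for 50% of them and below it for 14.3%, against 34.8% and 24.8% of all genes compared. The repressor E2f4 rose by 0.80 (adjusted p = 0.0272), the E2F partner Tfdp2 changed by -0.95 (adjusted p = 0.0384), and E2f5 differed by 1.08 and did not pass (adjusted p = 0.0569). In a list of 18 tested inhibitor, quiescence and related genes, 5 rose and 3 fell (27.8% and 16.7%). The kinase inhibitor Cdkn1a (p21) stood at 12.58 and 12.63 in Spp1-/- smoke, 12.39 and 12.79 in WT smoke, and 10.54 and 10.86 in WT air, a rise of 1.89 ± 0.18 (adjusted p = 0.00376) in WT smoke. Gadd45a, a stress induced growth arrest gene, rose by 1.47 ± 0.12 (adjusted p = 0.00263). Cdkn1c (p57), at 9.36 and 8.87 in Spp1-/- smoke, 8.65 and 9.22 in WT smoke, and 11.61 and 11.98 in WT air, changed by -2.86 ± 0.27 (adjusted p = 0.00373). Cell cycle genes and an inhibitor of their kinases were thus higher in the same arrays, and Cdkn1c was lower together with the epithelium, endothelium and fibroblast lists, whose part in it was not tested.

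Of 6 macrophage growth factor genes tested, 1 rose and 0 fell (16.7% and 0%). Csf1, the macrophage colony stimulating factor, stood at 9.05 and 8.86 in Spp1-/- smoke, 9.09 and 8.78 in WT smoke, and 7.25 and 7.79 in WT air, a difference of 1.42 ± 0.22 in WT smoke (SE, limma adjusted p = 0.0133). Csf3r (-0.81, adjusted p = 0.065) and Csf2rb2 (0.57, adjusted p = 0.19) did not pass. Over the 120 tested genes of these 6 lists, 27 rose and 7 fell, where 11.1% rose and 10.3% fell of all genes compared. Counts from fits without 1 array have no share of all genes beside them here, so they show nothing particular to these lists. The count of 34 was 4 without WT smoke replicate 1, 9 without WT smoke replicate 2 and 59 without WT air replicate 1.

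Spp1-/- smoke against WT smoke asked whether the loss of Spp1 went with a difference in these genes under smoke. None of the 42 members passed: limma called 0 of them, as it called 0% of all 12382 genes, and 1 member and 540 of all genes had an unadjusted p under 0.05. The members' median difference was 0.01, from -0.27 to 0.53, against 0.00 over all genes. Differences were positive for 24 members and negative for 18. The Spp1-/- arrays lay above both WT arrays for 9 members and below them for 4, or 21.4% and 9.52%, against 18.3% and 19.5% of all genes. Pttg1, among the 9, passed the brightness filter through Spp1-/- smoke, its means in both WT groups being below it. Kif20a, among the 4, passed through the WT groups, its Spp1-/- smoke mean being below the filter. With 2 arrays a group this does not show that the genotypes were alike. The SE of a member ran from 0.09 to 0.37 with a median of 0.17, and the 95% interval reached from -0.92 to 0.97 for Mad2l1, the least precise, and from -0.27 to 0.21 for Cenpf, among the most precise.

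**Figure D4:**
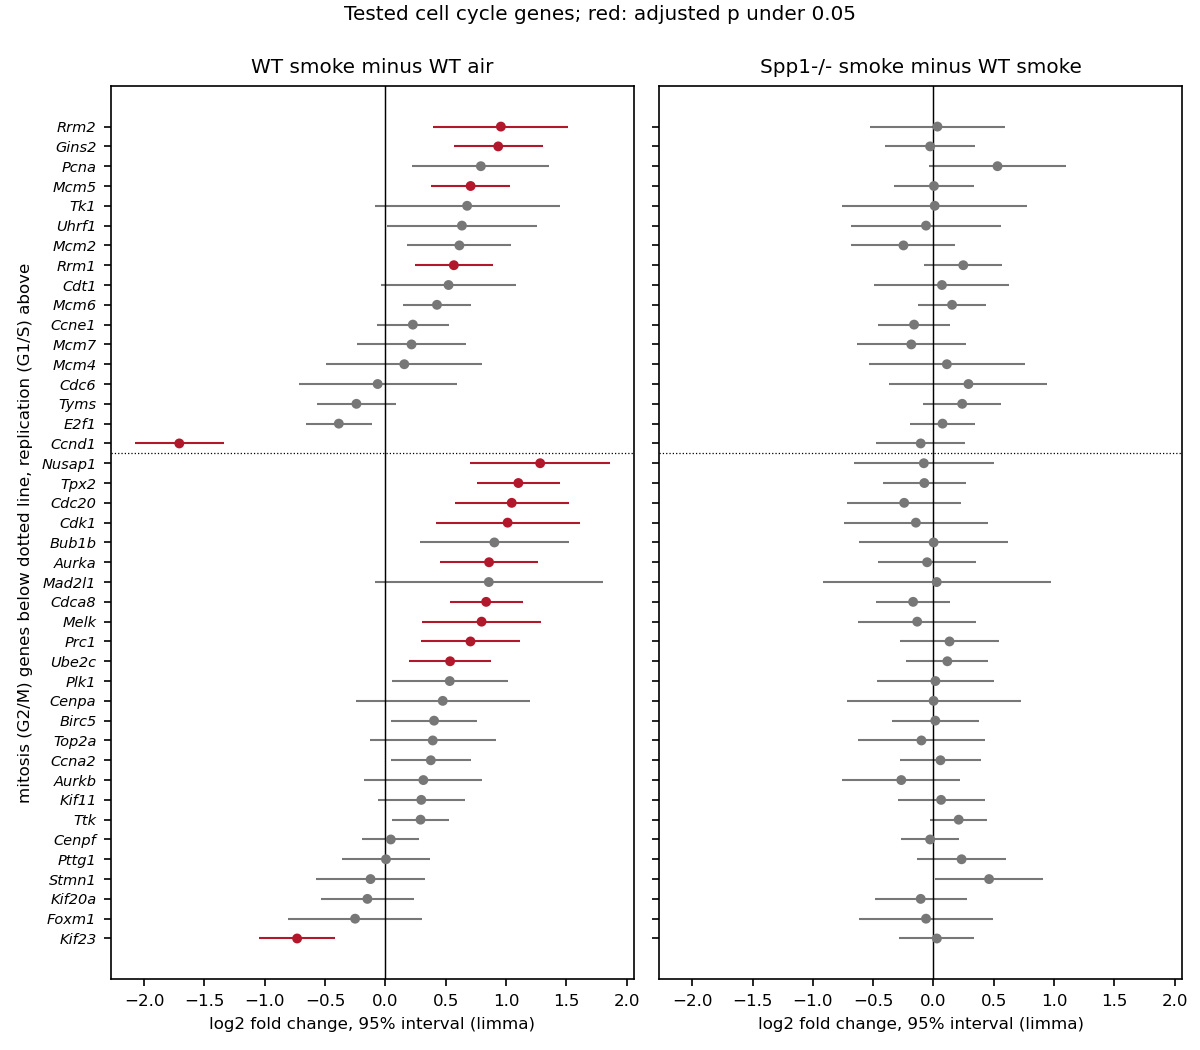
Log2 fold changes with 95% intervals from limma for the 42 tested members, WT smoke minus WT air at the left and Spp1-/- smoke minus WT smoke at the right, on the same scale. Red marks an adjusted p under 0.05. Most points lie right of 0 in the left panel, with Ccnd1 at -1.71 and Nusap1 at 1.28 as its ends, and 41 of 42 intervals in the right panel include 0.

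The 5 members with the smallest p between genotypes were Stmn1, Pcna, Ttk, Rrm1 and Tyms, all higher in Spp1-/- smoke and none past the threshold (limma adjusted p = 1 each). Stmn1, which destabilises microtubules, stood at 10.78 and 10.54 in Spp1-/- smoke, 10.39 and 10.01 in WT smoke, and 10.22 and 10.42 in WT air. Its difference between the smoke groups was 0.46, with a 95% interval from 0.01 to 0.91, the only interval among the members that left out 0. Pcna, given above by array, differed by 0.53 (95% interval from -0.04 to 1.10). Ttk, a kinase of the spindle checkpoint, stood at 7.64 and 7.65 in Spp1-/- smoke, 7.48 and 7.39 in WT smoke, and 7.16 and 7.13 in WT air, with a difference of 0.21 (-0.03 to 0.45). Rrm1 differed by 0.25 (-0.08 to 0.57) and Tyms by 0.24 (-0.09 to 0.56). The other probes of Rrm1 gave 0.11 and, below the brightness filter, -0.08. Those of Tyms gave 0.10, -0.07, 0.004 and, below the filter, -0.02. The other probes of Ttk, all below the filter, gave -0.02 and 0.006. Stmn1 and Pcna had 1 probe each. On the brightest probe of each of these 5 genes both Spp1-/- arrays were above both WT smoke arrays, as for 18.3% of all genes. The 5 were picked by p in this same comparison, so the separation follows in part from that choice. For Mcm5 (0.00, interval from -0.33 to 0.33) and Bub1b (0.00, from -0.61 to 0.62) the group means nearly coincided.

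Spp1-/- smoke against WT air differs in genotype and exposure together and uses the same WT air arrays as WT smoke against WT air. Here 14 members were higher and 2 lower at a limma adjusted p under 0.05, against 12.2% higher and 10.5% lower of all genes (22.6% called). Of the replication members 6 rose and 1 fell, of the mitosis members 8 rose and 1 fell, and the median was 0.53 over the members. Spp1-/- smoke lay above WT air on every array for 29 members and below it for 4, or 69.0% and 9.52%, against 35.2% and 26.1% of all genes. The 29 take in Ccna2, Melk, Ttk and Pttg1, whose WT air means were below the brightness filter. The 4 take in Kif20a, whose Spp1-/- smoke mean was below it. Pcna was higher by 1.32 ± 0.22 (SE, adjusted p = 0.0156), against 0.79 for WT smoke over WT air. Mcm6 was higher by 0.58 ± 0.11 (adjusted p = 0.0214), against 0.43 in that comparison, and Ttk by 0.50 ± 0.09 (adjusted p = 0.0205), against 0.29. Ttk passed the brightness filter through the smoke groups, its WT air mean being below it. Cdk1 (0.87, adjusted p = 0.0552) and Melk (0.66, adjusted p = 0.0665), called in WT smoke, did not pass here. Cdk1 did pass here with the brighter 25% of probes (adjusted p = 0.0315), an intensity trend and robust prior (0.0426), a replicate block (0.049) or the floor removed (1.37, adjusted p = 0.0309). Ccnd1 differed by -1.82 ± 0.15 (adjusted p = 0.00252) and Kif23 by -0.71 ± 0.12 (adjusted p = 0.0169). In this comparison Pcna, Mcm5, Mcm6, Gins2 and Rrm1 each missed the threshold without either Spp1-/- smoke array, each left out in turn (adjusted p between 0.0645 and 0.134), and Tpx2 without Spp1-/- smoke replicate 2 (0.0676). The count of 16 was 2 without Spp1-/- smoke replicate 1, 1 without Spp1-/- smoke replicate 2 and 24 without WT air replicate 1. The share of all genes called in those fits is not given here, so these counts show nothing particular to the members. Whether the 2 genotypes responded to smoke differently cannot be told without Spp1-/- cells in air.

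**Figure D5:**
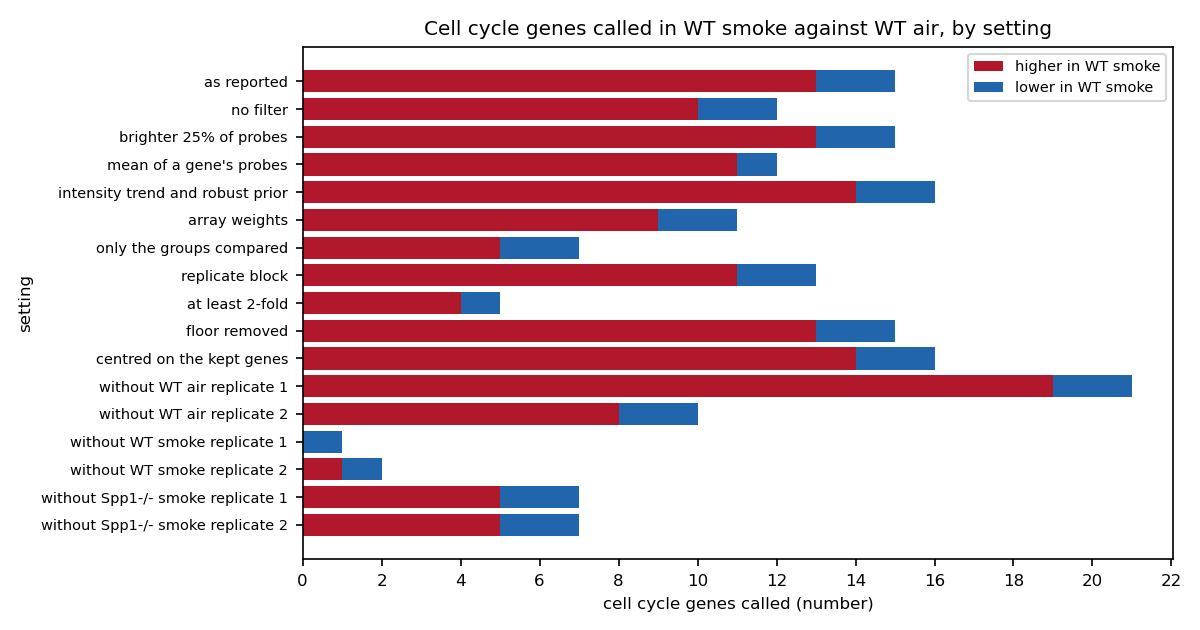
Bars give how many of the members passed in WT smoke against WT air under each setting, higher in red and lower in blue. As reported, 15 passed, and the bars run from 1 without WT smoke replicate 1 to 21 without WT air replicate 1.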

How the data were processed

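Gene expression in 6 samples of lung antigen presenting cells was read on Illumina arrays, and the titles gave each sample its group. Trizol RNA was turned into biotinylated cRNA with an Ambion MessageAmp kit, per the labels' protocols. The sources used here give neither the isolation of the cells nor a background correction or offset. The deposited log2 intensities of 45281 probes were used as the authors gave them, and the submitters' processing notes name limma with no version. The sorted columns differed by at most 0.0056, as after quantile normalization. The 12 columns of a second table (signals with detection p-values) could not be matched to samples by their headings and were left out.

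Platform symbols were matched to RefSeq by gene identifier, and 34807 probes took the RefSeq symbol, changed or not. For each member the platform and RefSeq symbols found the same probes. Of all probes, 34885 had 1 symbol, 18 had several and 10378 none named here. The files name no build, so genes are given no coordinates beyond the RefSeq promoters. Genes were kept where their brightest probe lay in the brighter 50% of probes (log2 intensity above 7.27), and the floor of 6.62 compresses differences of dim probes. The fit over all 6 arrays, with a coefficient for each group, used lmFit and eBayes of limma 3.58.1 under R 4.3.3. It had 3 residual degrees of freedom and a prior of 2.24, and Benjamini-Hochberg adjustment ran over all 12382 genes. An exact permutation test of 2 arrays against 2 cannot go below p = 0.333 and was not used. The steps were tested on simulated data. Figures were drawn with Python 3.11.15, pandas 2.3.3 and matplotlib 3.10.9. Only 2 arrays a group limit the precision.

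The members and all lists were chosen with earlier results of these data known. Values by array are given for members called in WT smoke against WT air, for the 5 with the smallest p between genotypes, and for Top2a, Cdk1, Pcna and the MCM genes. Other lists show up to 3 genes of smallest p. A few further values, such as those of E2f1, Mcm3, Rpa2 and Spc24, were added after their values were seen. Alternatives changed the filter (none, or the brighter 25% of probes), the probes (mean per gene), the fit (array weights, a robust prior with an intensity trend, a replicate block, or only the groups compared), the threshold (2-fold) and the scale (floor removed with an offset of 16, or centred on the kept genes). Each array was also left out, and the lone array of its group was then taken to vary like the other groups.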

Additional observations from a re-analysis of the deposited data

How the results depend on the processing

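With only the groups compared in the fit, the members called in WT smoke against WT air numbered 7 instead of 15 (3 replication, 4 mitosis), and the other cell cycle lists 13 instead of 34. At 2-fold they numbered 5 (1 replication, 4 mitosis) and 16. In Spp1-/- smoke against WT air, 4 members (2 replication, 2 mitosis) and 18 genes of the other lists were called at 2-fold, and 5 mitosis members and 22 genes of the other lists with only the groups compared. Leaving out 1 array at a time gave these counts in WT smoke against WT air: 1 to 21 members, 1 to 10 replication, 0 to 11 mitosis, 4 to 59 of the other lists, and 33 to 68 markers. In Spp1-/- smoke against WT air they were 1 to 24 members, 1 to 10 replication, 0 to 14 mitosis, 4 to 58 of the other lists, and 32 to 70 markers. In each comparison the lowest counts came without an array of its smoke group and the highest without WT air replicate 1. The cause was not tested. The share of all genes called in these alternative fits is not given here, so the counts show nothing particular to the members. Spp1-/- smoke against WT smoke called 0 members under every alternative run.

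The numbers of the replicates did not pair the samples: same-numbered arrays had deviations correlated at 0.14 (WT smoke and WT air), -0.08 (Spp1-/- smoke and WT air) and -0.03 (Spp1-/- smoke and WT smoke). With a replicate block, 13 members were called in WT smoke against WT air.

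Only chosen members were followed gene by gene, and among these, differences that changed sign belonged to genes that did not pass. In Spp1-/- smoke against WT air some called members were not followed. Between genotypes no member passed, so the sign changes there could belong to no other kind. Members not named here also changed sign. Without WT air replicate 2, positive differences in Spp1-/- smoke against WT air numbered 31 of 42 instead of 36. Without WT smoke replicate 2, those between genotypes numbered 17 instead of 24. Leaving out 1 array, WT smoke minus WT air ran from -0.16 to 0.47 for Mcm4 and from -0.03 to 0.46 for Mcm7. Likewise, Spp1-/- smoke minus WT smoke ran from -0.43 to 0.14 for Cdk1, -0.12 to 0.34 for Mcm4, -0.11 to 0.12 for Mcm5 and -0.40 to 0.20 for Top2a. Spp1-/- smoke minus WT air ran from -0.046 to 0.58 for Mcm4, -0.21 to 0.28 for Mcm7 and -0.008 to 0.59 for Top2a. Between genotypes, the mean of the probes gave 0.063 for Cdk1, and centring gave -0.009 for Mcm5. The members' median stayed above 0 in both comparisons with WT air, between 0.33 and 0.52 for WT smoke and between 0.42 and 0.63 for Spp1-/- smoke, with 1 array left out.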
